A study of Mus musculus with 72 samples.

Results

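The CpG island at the promoter of Arap1 was followed site by site in 5 mouse tissues of Arap knockouts and of wild-type mice. Its members were all CpG sites on chromosome 7 (mm9) that had at least 10 reads in each of the 10 island libraries of the line. This gave 31 sites from 108496480 to 108496701, out of 299 sites in the 6 islands of the series. The rule used position and coverage only, not methylation. The 31 sites were separated by coverage from all other listed positions. The last of them had at least 17308 reads in every library, and the next position, 108496710, had between 1 and 62.

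DNA was treated with bisulfite, which turns unmethylated cytosine into uracil and leaves methylated cytosine unchanged, and the island was amplified and sequenced. The knockouts are labelled Arap -/- and carry the tm1a allele, in which a LacZ reporter runs from the gene's own promoter and a neo selection cassette remains in the locus. The controls are labelled wild type. Mice of both genotypes were 7 weeks old and of strain background C57BL/6N, and their sex is not given in the sources used here. Each of brain, heart, kidney, liver and lung gave 1 library per genotype. Tissues are therefore the only replicates, p-values measure the spread between tissues, and whether tissues shared an animal or were pooled is not given in the sources used here.

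Arap1 encodes an adaptor-like protein that switches off Arf family GTPases and takes part in the traffic of growth factor receptors through endosomes. Promoter CpG islands are dense in CpG and are unmethylated in most tissues, whether or not the gene is highly transcribed. Dense methylation of such an island is known to accompany stable silencing, while scattered low-level methylation has no such general meaning.

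The sequence under these sites was found by matching the spacings of the listed positions to the CG letters of the RefSeq promoter table (GRCm38.p6). In 1 of the 3 Arap1 promoters in that table, 21 of 21 CG letters inside the covered span fell on measured sites, with no site left over. The best complete match in the promoters of other genes covered 4, out of 32851 promoters searched. Sites are therefore named below by their distance from that RefSeq start, from -102 to +120, with 12 sites before it and 19 after it. The last 10 sites lie beyond the end of the promoter sequence. The stretch from just before the first site to the first base of the transcript, chr7:101347963-101348069 on the plus strand, is shown here because it holds the CpG sites before the start, in capitals.
Arap1 promoter: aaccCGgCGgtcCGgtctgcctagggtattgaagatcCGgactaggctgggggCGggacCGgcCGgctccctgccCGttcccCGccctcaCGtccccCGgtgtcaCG

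The window from 250 bases before to 50 after the start was searched on both strands for 6 short motifs. GGGCGG, the GC box bound by Sp1-type factors, occurred 4 times, with first bases at -56, -25 (minus strand), +4 and +8, the last pair overlapping. It was present in 35.7% of all promoters in the table. CACGTG, the E-box, occurred once, at -3, and was present in 7.15% of promoters. The letters CCAAT (present in 37.4% of promoters) and the TATA box written as TATAAA (13.6%) were not found in this window. Nor were the cyclic AMP element core TGACG (20.8%) and an ETS motif written as CCGGAA (14.9%). Shorter forms of these motifs were not searched. Each GC box and the E-box holds a measured CpG. Their surroundings, with the CpG in capitals, are shown because several of the results below concern them, together with the site at -16, which had nearly the same level in every tissue.
Site -53, in a GC box: gggggCGggacc
Site -24, in a GC box on the minus strand: ttcccCGccctc
Site -16: cctcaCGtcccc
Site -1, in the E-box: tgtcaCGtgggg
Site +7, in a GC box: tggggCGggcgg
Site +11, in the overlapping GC box: gcgggCGgaagc

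Read depth was high at every site, but it differed between the genotypes. The knockout libraries held a median of 43673 reads per site in brain, 54914 in heart, 68113 in kidney, 19209 in liver and 51878 in lung. The wild-type libraries held 180042, 133143, 121536, 241771 and 138992 in the same order, so every wild-type library was deeper than every knockout library. The lowest coverage of any of the 31 sites in any library was 15449. Intervals cover counting error of reads only, because amplified reads that carry no molecular identifier can be copies of 1 molecule. The number of molecules behind a level is therefore not known.

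The island was almost unmethylated outside liver in both genotypes. In wild type the mean level over the 31 sites was 0.582% in brain, 0.674% in heart, then 0.567% in kidney, with 0.561% in lung, but 3.18% in liver. In knockouts it was 1.27% in brain, 1.39% in heart, then 0.808% in kidney, with 0.841% in lung, and 2.31% in liver. Liver was the highest tissue of each genotype, and outside liver each knockout library lay above each wild-type library. The 95% Wilson interval of the pooled reads of each library ran from 3.39% to 3.41% in wild-type liver and from 2.43% to 2.51% in knockout liver.

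Averaged over tissues the genotypes did not separate. The mean was 1.33% ± 0.609 in knockouts and 1.11% ± 1.15 in wild type (SD, n = 5 tissues). The difference was 0.213 ± 0.642 percentage points, with the knockout higher in 4 of 5 tissues (two-sided exact sign-flip permutation p = 0.438; 0.0625 is the lowest value 5 pairs allow). The knockout minus wild-type difference was 0.688 points in brain, 0.721 in heart, then 0.241 in kidney, with 0.280 in lung, against -0.863 in liver. Without the liver pair the difference was 0.482 ± 0.257 (SD, n = 4), higher in 4 of 4 tissues, where 0.125 is the lowest p that the exact test allows and is the value found. The average was smaller without brain, at 0.0944, and without heart, at 0.0864.

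**Figure D1:**
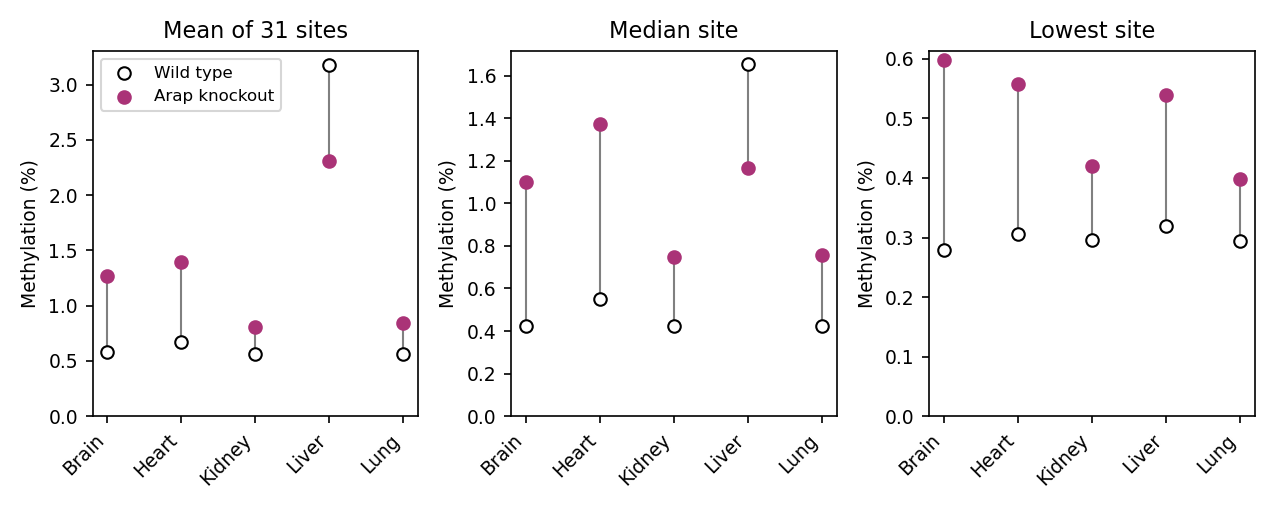
Methylation in percent of each Arap island library, by tissue, as the mean of the 31 sites (left), the median site (middle) and the lowest site (right); open circles are wild type, filled circles are knockout, and each point is 1 library. Knockout lies above wild type in brain, heart, kidney and lung in all 3 panels, and below it in liver for the mean and the median but not for the lowest site.

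The level of the least methylated site of each library also differed by genotype, and this touches every knockout to wild-type comparison below. That level was 0.598% in brain, 0.557% in heart, 0.420% in kidney, 0.539% in liver and 0.399% in lung of knockouts. In wild type it was 0.279%, 0.306%, 0.296%, 0.319% and 0.294% in the same order. The groups did not overlap. In an analysis added once the levels were known, the lowest site of each library was subtracted from the library's mean. The difference between genotypes was then 0.00937 ± 0.627 points (SD, n = 5; exact permutation p = 1). Knockout stayed higher in 4 of 5 tissues. The values were 0.673 against 0.304 points in brain, 0.837 against 0.368 in heart, 0.388 against 0.271 in kidney and 0.442 against 0.267 in lung. Liver went the other way, with 1.77 in the knockout against 2.86 in wild type, so the tissues offset each other in the mean. Non-CpG cytosines are not listed, so unconverted cytosine was not measured, and its part and that of depth in the genotype difference was not tested.

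Single sites were compared between genotypes with edgeR's quasi-likelihood test on methylated and unmethylated counts, with tissue as a term and p-values adjusted over the 299 sites of all islands. At an adjusted p of 0.05, 6 of the 31 Arap1 sites were higher in knockouts and 0 were lower. Over all islands 22.4% of sites were called higher and 1.67% lower, so the Arap1 share was close to that of the series. The median log2 odds ratio was 0.78 over the 31 sites, against 0.97 over the 6 called sites, where 1 would mean doubled odds of methylation. At 16 of 31 sites the unadjusted p was below the threshold, all 16 of them higher in knockouts, and limma also called 6 higher and 0 lower.

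The 6 called sites lay at -102, -69, -31, -16, +20 and +69. They were the same 6 sites at which the lowest knockout tissue exceeded the highest wild-type tissue, a pattern found at 26.4% of sites over all islands. The reverse, all knockout tissues below all wild-type tissues, occurred at 0 Arap1 sites and at 2.68% of sites over all islands. The islands were measured in 2 to 6 tissues. Full separation arises more easily with fewer tissues, so these shares are not like for like with the 5 tissues of Arap1. Site -16 had the smallest adjusted p of the island (edgeR adjusted p = 0.00407). Its knockout level was 0.670% in brain, 0.644% in heart, 0.599% in kidney, 0.605% in liver and 0.616% in lung. Its wild-type level was 0.322%, 0.306%, 0.323%, 0.319% and 0.355% in the same order. The SD over tissues was 0.0297 points in knockouts and 0.0180 in wild type, liver included, and the genotypes differed by a log2 odds ratio of 0.95 ± 0.16 (SE). It had the lowest mean level of the island in wild type, 0.325%, close to the lowest level of any site in the wild-type libraries.

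Site -102, the first of the island, had the largest mean difference, 0.633 points. Its knockout level was 1.81% in brain, 1.60% in heart, 0.803% in kidney, 0.809% in liver and 0.801% in lung. Its wild-type level was 0.523%, 0.617%, 0.569%, 0.483% and 0.467%. Brain and heart knockouts stood above the other 3 knockout tissues, and wild-type tissues lay close together (log2 odds ratio 1.05 ± 0.28 SE, edgeR adjusted p = 0.0233).

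Site -31 had 1.10%, 1.37%, 0.757%, 0.989% and 0.834% in knockout brain, heart, kidney, liver and lung, and 0.330%, 0.549%, 0.437%, 0.721% and 0.438% in wild type (log2 odds ratio 1.06 ± 0.23 SE, edgeR adjusted p = 0.0115). The remaining called sites were -69 (edgeR adjusted p = 0.0233), +20 (0.0456) and +69 (0.0233), with mean differences of 0.460, 0.471 and 0.373 points. At +20 knockout heart stood apart at 1.61%, the other knockout tissues lying between 0.738% and 0.765%. At -69 knockout heart was again the highest, at 1.60%, against 0.905% or less in the other knockout tissues. All 6 called sites had low wild-type liver levels, from 0.319% to 0.721%. The test fits the same genotype difference in all tissues, so sites where liver departs are less likely to be called.

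The count of called sites depended on the liver pair. Without it, 26 of 31 sites were higher in knockouts and 0 lower, and all 6 sites were among them, while 95 of 299 sites were called in either direction over all islands. Without brain, heart or lung it was 2, with 67 of 299 called over all islands in each case. Without kidney it was 3, with 69 of 299 over all islands. In each of these totals only the Arap pair was left out, and the other islands kept all their libraries. The test with no tissue term does not pair knockout and wild type of a tissue. It called 3 Arap1 sites, with 29 of 299 over all islands.

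**Figure D2:**
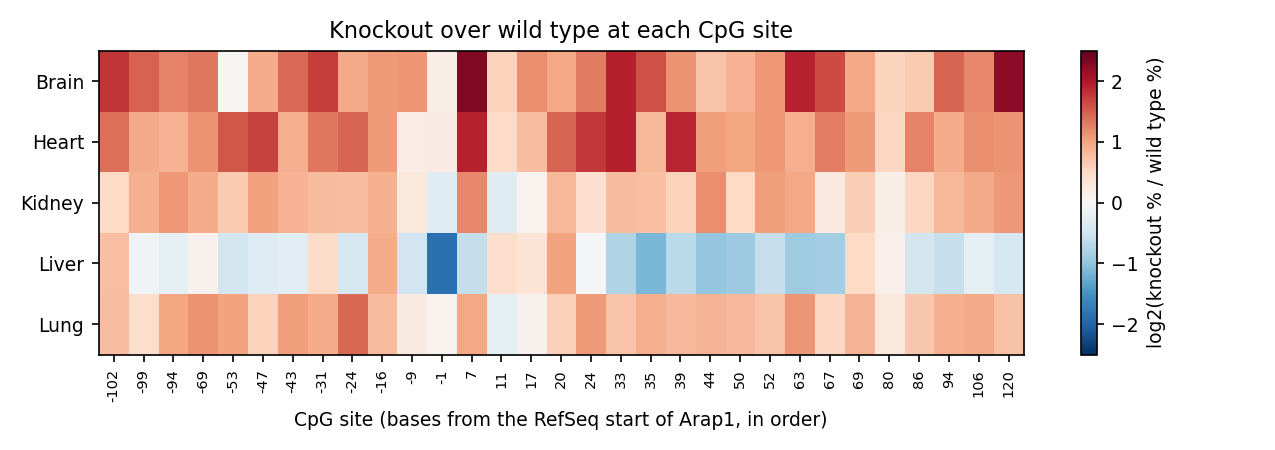
Ratio of knockout to wild-type methylation at each of the 31 CpG sites (columns, in order along the island, labelled by distance in bases from the RefSeq start) in each tissue (rows), on a log2 colour scale with red for higher in knockouts. The ratio is above 1 at all 31 sites in brain and heart, at 29 in kidney, at 30 in lung and at 9 in liver.

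Within a tissue the direction was nearly uniform along the island. The knockout level was above wild type at 31 of 31 sites in brain, 31 in heart, then 29 in kidney, with 30 in lung, but at 9 in liver. The median ratio of knockout to wild type over sites was 2.24 in brain, 2.12 in heart, then 1.73 in kidney, with 1.75 in lung, and 0.741 in liver. At 21 sites the knockout was lower in liver and higher in each of the other 4 tissues.

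Most of these within-tissue differences exceeded counting error, though with 1 library per genotype they compare libraries, not conditions. The 95% Wilson intervals lay apart with the knockout above at 30 of 31 sites in brain, where the share over all islands with this tissue was 56.1%. The same held at 30 sites in heart (47.7% over islands), 27 in kidney (43.8%) and 26 in lung (48.1%). The knockout lay below at 0 sites in brain (11.0% over islands), 0 in heart (13.1%), 2 in kidney (12%) and 1 in lung (9.52%). In liver the knockout lay above at 7 sites (36.2% over islands) and below at 18 (17.2%). In direction alone, without regard to intervals, the exceptions outside liver were sites -1 and +11, at which the knockout was not higher in each of the 4 tissues.

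Liver carried its own pattern along the island, and it was shared by both genotypes. Only liver libraries reached 5% at any site: 7 of 31 sites did so in wild-type liver, 3 in knockout liver and 0 in the 8 other libraries. The highest sites were +120, +7, +63 and +67 in wild-type liver. High sites could sit beside high ones, as +63 and +67 did, or beside low ones: +67 had 7.20% and +69, the next site, 0.612% in the same library.

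**Figure D3:**
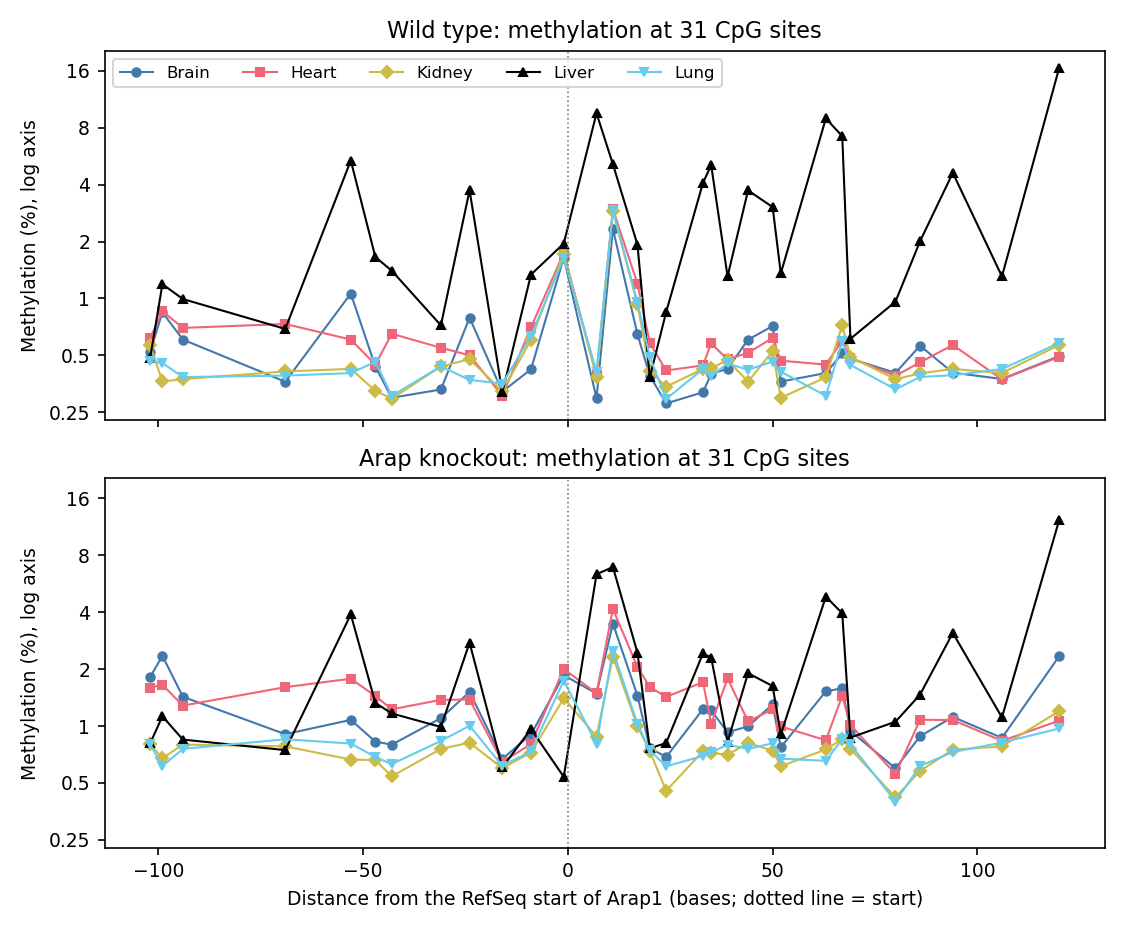
Methylation in percent, on a log axis, at the 31 CpG sites against distance in bases from the RefSeq start, for wild type (top) and knockouts (bottom), with 1 line per tissue. Liver stands highest at +7, +63, +67 and +120 among others in both genotypes, reaching 16.6% in wild type and 12.3% in knockout at +120, while the other tissues stay below 5% throughout.

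Site +120, the last of the island, showed the pattern at its strongest. In wild type it had 0.496% in brain, 0.491% in heart, 0.567% in kidney, 16.6% in liver and 0.582% in lung. In knockouts it had 2.34%, 1.07%, 1.20%, 12.3% and 0.970% in the same order. Liver was the only high tissue in either genotype. The interval of the liver level from counting was 16.5% to 16.8% in wild type and 11.8% to 12.8% in the knockout.

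Site +7, in a GC box, had 0.297% in brain, 0.395% in heart, 0.384% in kidney, 9.52% in liver and 0.410% in lung of wild type. In knockouts it had 1.48%, 1.49%, 0.880%, 6.34% and 0.804%. Site +63 had 0.403%, 0.447%, 0.383%, 8.95% and 0.306% in wild type, and 1.53%, 0.841%, 0.752%, 4.83% and 0.655% in knockouts. At each of these sites both liver libraries stood above all 8 others, and knockout liver was below wild-type liver.

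Tissues were then compared at each site in edgeR with a genotype term, each tissue against the other 4, a test added after the liver values had been seen. Liver was higher at 16 of 31 sites and lower at 0 (edgeR adjusted p under 0.05), and limma gave the same counts. At an unadjusted p under 0.05 the counts were 20 and 0. Over the 5 islands measured in liver, 6.90% of 232 sites were called higher and 8.19% lower. All 16 of the higher calls were thus in Arap1, and the lower calls were 12 of 28 sites in Lyplal1, 5 of 40 in Rab32 and 2 of 55 in Ninj1. Brain, heart, kidney and lung had 0 calls each in Arap1, 0.0% of the sites of all islands with the tissue, with 0, 2, 0 and 0 Arap1 sites at an unadjusted p under the threshold and 0 calls in limma. When all tissue terms were tested together, 5 Arap1 sites were called, against 4.68% of sites over all islands.

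The liver log2 odds ratio at the 16 called sites ran from 1.09 to 4.32 with a median of 2.23, against a median of 1.10 over all 31 sites. It was 4.32 ± 0.42 (SE) at +120 (edgeR adjusted p = 3.00e-05). At 15 of these 16 sites, and at 1 other, both liver libraries exceeded all 8 libraries of other tissues. The like was so at 6.90% of sites over the islands with liver, and all sites behind that share were in Arap1. None of the 6 sites called between genotypes was among the 16 liver calls. The genotype test fits the same difference in all tissues, so a site where liver departs is less likely to be called. Without the liver pair, 14 of the 16 were among the 26 sites called higher in knockouts. The count of liver calls was 12 to 18 when single pairs of other tissues were left out.

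The 16 sites were spread unevenly along the island. They made up 3 of the 12 sites before the start (-53, -47 and -24) and 13 of the 19 after it. Among the sites placed in the promoter sequence, all 4 that lie in GC boxes were called for liver, as were 4 of the other 17. The 10 sites beyond that sequence could not be compared with motifs. Called sites +63, +67 and +120 were among them. Site -1, in the E-box, was not called. This match with a motif is a description of letters in the sequence, and no factor binding was measured.

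**Figure D4:**
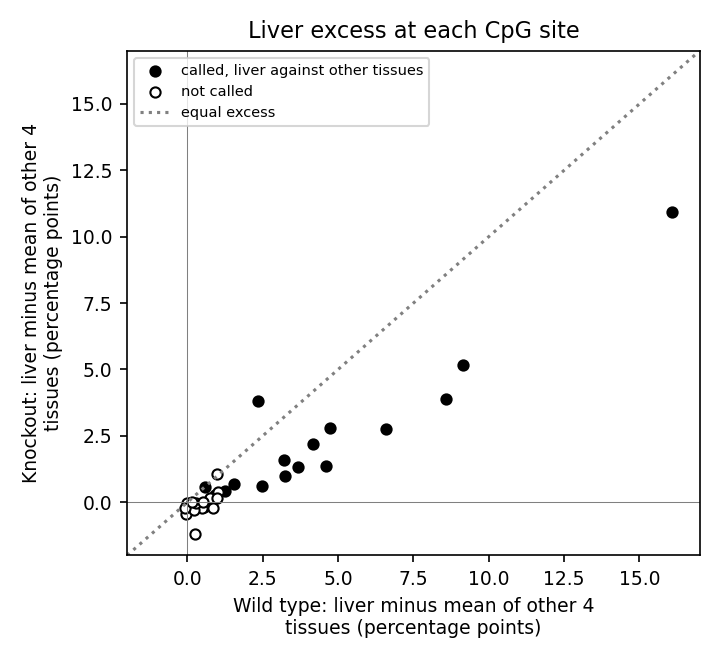
Liver level minus the mean of the other 4 tissues, in percentage points, in wild type (horizontal) and knockout (vertical) at each of the 31 CpG sites; filled points were called for liver and the dotted line marks an equal excess. All 16 filled points have an excess above 0 in both genotypes, and 15 of them lie below the line. Most of the points not called lie below the line too.

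The liver profiles of both genotypes resembled each other more than either resembled another tissue. Over the 31 sites, Pearson's r between knockout and wild-type liver was 0.944 and Spearman's rank correlation 0.892. Between a liver library and another library, r ran from 0.0114 to 0.607 with a median of 0.245 over 16 pairs. Between libraries of other tissues it ran from 0.700 to 0.992 over 28 pairs. Spearman's rank correlation was lower over these 28 pairs, from 0.348 to 0.860 with a median of 0.501. Over the 16 pairs with 1 liver library it ran from -0.0234 to 0.534, so these ranges overlapped. These values describe sites of 1 amplicon that share reads and sequence, and carry no test.

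Liver was also the tissue in which the genotypes differed in the opposite direction. At 15 of the 16 liver sites the excess over other tissues was smaller in the knockout. The median ratio of knockout to wild-type liver was 0.700 there and 0.741 over all 31 sites. The smaller excess was not particular to the called sites. At the 15 sites not called for liver, the median excess was -0.0276 points in the knockout and 0.477 in wild type. An interaction term in edgeR, added after the values had been seen, tested whether the genotype difference in a tissue departed from the other 4. It was called at 15 of 31 sites in liver, in each case with a lower odds ratio in liver, against 9.15% of 164 sites over the islands that allowed this test. All calls behind that share were in Arap1 itself. Liver gave 1 library per genotype, so the interaction p-values have no liver replicate behind them and take their spread from the other tissues. In brain, heart and kidney it was called at 0.0% of sites over all islands and in lung at 2.16%, and at 0 Arap1 sites in each of them, with 1, 0, 0 and 0 at an unadjusted p under the threshold and 0 in limma. Of the 15 sites, 11 were among the 16 called for liver. The liver count fell to 0 without the kidney or the lung pair, when 20 and 18 sites had an unadjusted p under the threshold. The knockout liver library was the shallowest of the 10, and its part in the reversed direction was not tested.

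Site +35 shows the reversal. Knockout and wild type had 1.21% and 0.399% in brain, 1.03% and 0.579% in heart, 0.722% and 0.429% in kidney, and 0.726% and 0.389% in lung. In liver they had 2.30% and 5.06%. The knockout was higher in 4 tissues and below wild type by 2.76 points in liver (interaction log2 odds ratio -2.21 ± 0.50 SE, edgeR adjusted p = 0.0158). Site +35 was chosen after its values were seen.

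A few sites departed from these patterns. Site +11, in the second of the overlapping GC boxes, was the most methylated site of every library outside liver. It had 2.33% in brain, 2.97% in heart, 2.88% in kidney, 5.12% in liver and 2.93% in lung of wild type, and in knockouts 3.48% in brain, 4.15% in heart, then 2.32% in kidney and 6.92% in liver, lung lying between kidney and brain. Knockout was above wild type in brain, heart and liver and below it in kidney and lung, and the difference of 0.630 points did not pass the test (edgeR adjusted p = 0.606). At this site alone among the 16 liver sites the liver excess was larger in the knockout.

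Site -1, in the E-box, lay between 1.40% and 2.00% in 9 libraries and was low in 1. Wild type had 1.64% in brain, 1.74% in heart, 1.72% in kidney, 1.95% in liver and 1.63% in lung. Knockouts had 1.85%, 2.00%, 1.40%, 0.539% and 1.74%. Knockout liver was thus the lowest, and the site was the lowest of that library. The interval of that value from counting was 0.465% to 0.625%. Coverage stepped up at this site, from at most 218599 reads at -9 to at most 392742 at -1, and the effect of that step on the level was not tested.

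Sites +63, +67 and -1 had the most negative mean differences between genotypes, -0.377, -0.191 and -0.231 points. None passed the test (edgeR adjusted p = 0.162, 0.301 and 0.547). The log2 odds ratios tested were 0.80, 0.56 and -0.33, so at +63 and +67 their sign was opposite to that of the mean difference. At both of these sites the knockout was higher in 4 of 5 tissues and lower in liver. Site -99 had a mean difference of 0.541 points (edgeR adjusted p = 0.0895), with knockout brain at 2.35% and knockout heart at 1.65% above the other 3 knockout tissues, which ran from 0.615% to 1.13%. Site +24, the second lowest in wild type with a mean of 0.436%, had a difference of 0.363 points (edgeR adjusted p = 0.106).

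The spread of island levels between tissues was compared between genotypes with an exact permutation test over the 10 libraries, whose regroupings do not keep the tissue pairs together, and the difference did not pass it. The mean absolute deviation of island levels from the genotype's median was 0.412 points in knockouts and 0.544 in wild type, a difference of -0.133 (two-sided exact permutation p = 0.817, 252 regroupings). Its direction rested on liver. Without that pair the deviations were 0.254 and 0.0320, a difference of 0.222 (exact permutation p = 0.429).

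LacZ and island levels of knockouts, amplified from the same DNA per the series description, are set side by side. At the 176 LacZ sites with at least 10 reads in all 5 libraries, LacZ methylation averaged 18.5% in brain, 28.5% in heart, 32.4% in kidney, 36.9% in lung and 65.6% in liver. The island levels were 1.27%, 1.39%, 0.808%, 0.841% and 2.31% in that order. Liver was the highest tissue in both, and brain, the lowest for LacZ, was not the lowest for the island. With 5 tissues no correlation was computed.

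The spread between tissues was set beside that of the other islands. The SD of wild-type levels over tissues was 1.15 points in Arap1, against 0.105 to 0.542 in the other 5 islands, which were measured in 2 to 6 tissues each. The SD of knockout levels was 0.609 points in Arap1, below 3.39 in Lyplal1 and 0.672 in Rgcc and above the other 3 islands. Wild-type liver minus the mean of the other tissues was 2.58 points in Arap1, 0.0484 in Dstn, -0.236 in Ninj1, -0.489 in Rab32 and -0.767 in Lyplal1. The knockout values were 1.23, 0.0258, -0.377, -0.523 and -4.80. No test of this difference between islands was run.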

How the data were processed

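Per the labels' protocols, tissue DNA was converted with a bisulfite kit, the island and LacZ were amplified, products were isolated from gels and pooled, and an RNA library kit was used from adapter ligation on. Per the submitters' processing notes, Bowtie2 and Bismark were used with the mm9 build, without versions. The deposited files give, per CpG site, counts of methylated and unmethylated calls and a percent methylation, which equalled the share of methylated counts to within 5.68e-14. Duplicate handling and strand are not given in the sources used here.

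Groups came from titles. The 10 Arap island libraries held 633835 to 7665397 calls at the 31 sites, the LacZ libraries of Arap 1923041 to 2993338. Positions within 2000 bp of the island were kept, and those elsewhere held at most 0.00232% of calls. No files were identical. Levels are unweighted means over sites. Wilson intervals cover 95%.

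Site tests used edgeR 4.0.16 (R 4.3.3), 1 fit per line, with Benjamini-Hochberg adjustment over all 299 island sites, or over those of the islands with the tissue for tissue tests, at 0.05. Alternatives were limma 3.58.1 on log2 odds (offset 0.5 calls), no tissue term, other coverage minima, and leaving out each tissue pair of Arap. The tissue and interaction tests, and the subtraction of the lowest site, were added after seeing the data. The genotype fit was also run on simulated counts that held no differences between tissues, unlike these data. Levels and intervals were computed in Python 3.11.15 with statsmodels 0.14.6, scipy 1.17.1, pandas 2.3.3 and numpy 2.4.6, and plotted with matplotlib 3.10.9. Tissues paired knockout and wild type; the labels carry no replicate numbers.

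Named sites were those called, the 3 largest and 3 smallest mean differences, the 2 highest and 2 lowest wild-type means, and the first and last. The sites +7 and +35 were picked from the liver results. The island and the tests were chosen with earlier results of these data known.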

Additional observations from a re-analysis of the deposited data

Results flagged for a closer look

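Several groups of 5 libraries held 1 library far from the others, with a gap to its neighbour of more than 0.71 of the group's range. This happened in 12 of 28 groups examined, and liver was the high library in 10 of them. A rate of about 1 in 20 holds for independent groups that were not chosen by their values. The named sites were chosen partly by their values, and sites of the amplicon share reads, so that rate is no measure for this count. For the island level in wild type the gap was 0.957 of the range. For wild-type liver it was 0.770 at +11, 0.758 at +24, 0.984 at +63, 0.968 at +67, 0.726 at +69 and 0.994 at +120. For knockout liver it was 0.791 at +63, 0.764 at +67 and 0.879 at +120. Knockout heart was the high library at -69, with a gap of 0.814, and at +20, with 0.969.

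The island difference between knockout and wild type was -0.863 points in liver and positive in the other 4 tissues, a difference that was not tested at the level of the island. At single sites the edgeR interaction term called 15 sites in liver, with 0 calls without the kidney or the lung pair.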

How the results depend on the processing

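The island difference between genotypes kept its direction in 12 alternatives, where the exact test could not go below 0.0625 with 5 pairs or 0.125 with 4, and ran from 0.0864 to 0.482 points when single tissue pairs were left out. The count of 6 sites called between genotypes was 6 in limma, 7 with a minimum of 100 reads, 6 with no minimum, and 2 to 26 without single pairs, the highest without liver. No replicate numbers are in the labels, so the replicate block is the tissue pairing: without it 3 sites were called. The 16 liver calls were 16 in limma and with a minimum of 100 reads and 12 to 18 without single pairs. The 5 calls over all tissue terms were 5 in limma and with other minima and 0 to 7 without single pairs, with 0 without heart. The 15 interaction calls were 13 in limma and 0 to 12 without single pairs, with 0 without kidney or lung. The spread between tissues ran from -0.278 to 0.222 without single pairs, positive without liver. Of 117 values for 13 named sites, 93 kept direction and side of the threshold, 18 lost the call, 5 gained it, and 1 reversed, site -1 without liver (log2 odds ratio 0.044). The cause of these changes was not tested. None of the 31 sites had fewer than 100 reads in any library, and island levels were the same under each coverage minimum, the lowest being 1 read in every library. Read depth was high at all 31 sites, but the number of molecules behind the reads is not known. Levels under about 1% were near the lowest site of each library, and unconverted cytosine was not measured.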

Other observations

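Upstream of the island, position 108496450 was listed in 6 of the libraries with 1 to 9 reads each, and 27 of 27 calls there were methylated. Close by, position 108496454 had 0 of 5 calls methylated and position 108496445 had 0 of 1. The nearest member, 30 bases on, had at most 1.81% in any library. Downstream, positions 108496710 and 108496726 had 0 methylated calls of 241 and 303 over all 10 libraries, and position 108496741 had 11 of 90. None of these positions reached 10 reads in every library, so their levels are not compared with the 31 sites.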
